A study of Mus musculus with 108 samples.

Results

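Macrophages that entered the brain from the blood were sorted from mouse brains bearing metastases of lung cancer, either after a single dose of 10 Gy (1x10 Gy, D3 in the labels, taken as day 3) or without radiotherapy. The comparison was defined by column names in the deposited count table and takes the 3 libraries of the irradiated group against 10 unirradiated libraries, 13 of the 108 libraries in the series. The unirradiated libraries fall into 5 from brains labelled with small tumours and 5 from brains labelled with large tumours, and the irradiated libraries were not stratified by stage. The reference was therefore the mean of the small and large stages. All animals were Balb/C athymic nude mice (CAnN.Cg-Foxn1nu/Crl), which lack a functional thymus and so most mature T cells, and the labels give no further allele, agent or age. The cells are called bone marrow-derived macrophages (BMDM) in the labels and monocyte-derived macrophages in the design text. They were not grown from bone marrow in culture, since the labels give the brain as their source and purification by flow cytometry as the method. Other libraries used for comparison were BMDM after 5 fractions of 2 Gy at day 3 (4 libraries), day 5 (4) and day 10 (3), and microglia (5 small, 5 large, 3 irradiated) and inflammatory monocytes (4 small, 5 large, 3 irradiated) with the same single dose and day. Nothing in the labels says whether a group's libraries are from separate mice, so the p-values measure the spread between libraries, which may be technical.

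Ionising radiation breaks DNA, and the kinases that sense the breaks stabilise the transcription factor p53. Its targets include the cell cycle inhibitor Cdkn1a (p21), the ubiquitin ligase Mdm2 that degrades p53 itself, the cyclin Ccng1, the AKT inhibitor Phlda3 and the cell death gene Bax. Macrophages of brain metastases come from blood monocytes and from resident microglia, and both take up dying cells, present antigen and release cytokines through NF-kB and interferon signalling. Because bulk RNA was measured, fewer cells of a type and less RNA per cell cannot be told apart in any result below.

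The 13 libraries held between 7059127 and 15378802 counts. Irradiated libraries 1, 2 and 3 held 13836840, 9830360 and 14897154 counts. Library 2 of the irradiated group stood apart: it had 13508 genes with a count, and its correlation with the other 23 BMDM libraries lay between 0.698 and 0.813, whereas libraries 1 and 3 correlated at 0.964 with each other. Small-stage library 2 was also thin, with 14411 genes detected, and large-stage library 2 had 31357. In the 5x2 Gy day 3 group, library 2 held 5385 counts of 4 Y-linked genes and 1 count of Xist, while all other libraries used here held at most 63 Y-linked counts.

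The macrophage label was checked against defining genes, on one scale of counts scaled to a common library size (CPM) fitted over macrophages and microglia. Genes of recruited macrophages were present in every unirradiated BMDM library: the integrin Itga4 ran from 64.5 to 325 CPM (median 191, n = 10) and the transcription factor Runx3 from 29.6 to 126 CPM (median 89.3). In unirradiated microglia the same genes reached at most 28.3 and 11.3 CPM. The aryl hydrocarbon receptor Ahr had a median of 86.1 CPM in BMDM and 1.46 CPM in microglia. The microglial transcription factor Sall1 had a median of 11.2 CPM in BMDM and 142 CPM in microglia, and the microglial receptor P2ry12 had medians of 231 and 1738 CPM. Unirradiated monocytes, in a separate fit, also had P2ry12 at a median of 76.2 CPM and the microglial gene Tmem119 at 157 CPM, with Sall1 at 1.25 CPM. Whether such transcripts in BMDM came from the macrophages or from microglia was not tested. On the BMDM scale Sall1 read 24.1, 18.4 and 38.2 CPM in the 3 irradiated libraries and between 3.45 and 115 CPM in the unirradiated ones. Over 19 microglia identity genes the summed level was 10571 to 15465 CPM in irradiated and 7837 to 22683 CPM in unirradiated libraries, so the ranges overlapped.

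The region around the transcription start is shown for the 4 p53 targets described first below, of which only Phlda3 passed the test. Each window holds 250 bases before and 50 after an annotated RefSeq transcription start (GRCm38.p6), written 5′ to 3′ on the gene's strand, with capitals marking matches to the p53 half-site, a palindromic motif of 10 bases that reads the same on both strands. Phlda3 (chr1:135765835-135766134, plus strand) had no complete match, Ccng1 (chr11:40755237-40755536, minus strand) had 1 and Mdm2 (chr10:117710709-117711008, minus strand) had 1. The first of the Cdkn1a starts (chr17:29090729-29091028, plus strand) had 2 that lie close enough together to form a full element. The Phlda3 window ends on bases that match the start of the motif, and the rest of the motif would lie outside it. A motif cut by the end of a window was not scored.
Phlda3: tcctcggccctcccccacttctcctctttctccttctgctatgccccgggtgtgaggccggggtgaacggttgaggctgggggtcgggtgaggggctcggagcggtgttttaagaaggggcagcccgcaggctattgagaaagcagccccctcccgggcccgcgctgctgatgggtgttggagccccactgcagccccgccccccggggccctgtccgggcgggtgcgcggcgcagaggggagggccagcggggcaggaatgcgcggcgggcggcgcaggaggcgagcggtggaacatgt
Ccng1: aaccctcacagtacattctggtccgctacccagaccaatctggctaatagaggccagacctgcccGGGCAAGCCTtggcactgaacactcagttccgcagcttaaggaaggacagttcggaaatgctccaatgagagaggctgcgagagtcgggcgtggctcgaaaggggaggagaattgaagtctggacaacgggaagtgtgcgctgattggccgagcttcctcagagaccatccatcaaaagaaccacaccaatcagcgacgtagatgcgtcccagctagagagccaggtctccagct
Cdkn1a: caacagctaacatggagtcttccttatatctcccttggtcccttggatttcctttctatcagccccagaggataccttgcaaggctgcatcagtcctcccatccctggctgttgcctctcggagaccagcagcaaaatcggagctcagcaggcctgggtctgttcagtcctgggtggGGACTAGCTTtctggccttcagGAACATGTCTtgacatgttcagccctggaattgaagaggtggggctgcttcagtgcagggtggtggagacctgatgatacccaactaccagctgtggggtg
Mdm2: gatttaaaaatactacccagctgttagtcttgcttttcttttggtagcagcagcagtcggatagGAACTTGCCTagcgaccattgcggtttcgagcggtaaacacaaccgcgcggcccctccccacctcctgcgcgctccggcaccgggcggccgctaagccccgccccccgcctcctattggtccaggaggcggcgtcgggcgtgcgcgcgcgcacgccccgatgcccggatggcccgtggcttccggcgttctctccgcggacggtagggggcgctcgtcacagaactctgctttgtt
The half-site began at base -185 from the start of Ccng1, at -186 from that of Mdm2, and at -73 and -51 from that of Cdkn1a. A second Cdkn1a start (chr17:29093519-29093818) had no match in its window. Of 32851 windows of the same length in the RefSeq table, 2745 (8.36%) held at least 1 half-site and 24 (0.0731%) a full element. Of 25 p53 target genes in the list used here, 19 had a window and 8 of these had a half-site in at least 1 window. Matches describe letters in these windows and do not mark binding, and the search covered no introns, where p53 elements of such genes can also lie.

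After a single dose of 10 Gy, Phlda3 was the 1 gene that rose in BMDM among 15874 tested (0.0063%, edgeR's quasi-likelihood test, adjusted p under 0.05), and no gene fell. At an unadjusted p under 0.05, 643 genes (4.05%) were higher and 840 (5.29%) lower, together 9.34% of those tested. All 3 irradiated libraries lay above all 10 unirradiated ones for 122 genes (0.769%) and below them for 70 genes (0.441%), together 1.21%. The median log2 fold change over all genes was -0.07, and 44.5% of genes had a value above 0. Counts of list members in this comparison, given below, are read against these shares.

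Phlda3 (ENSMUSG00000041801, chr1:135766119-135769136, plus strand), a small protein that competes with AKT for membrane lipids, read 39.1, 18.8 and 5.66 CPM in irradiated libraries 1, 2 and 3. It read 1.48, 3.84, 1.13, 1.73 and 1.79 CPM in the small-stage libraries and 0.473, 1.50, 0, 1.23 and 1.39 CPM in the large-stage libraries. Every irradiated library was above every unirradiated one, with a wide spread among the irradiated ones. The means were 21.2 ± 16.8 CPM (SD, n = 3) and 1.46 ± 1.01 CPM (SD, n = 10). The log2 fold change was 3.96 ± 0.58 (SE, 95% interval 2.77 to 5.15, adjusted p = 0.00821 in edgeR's quasi-likelihood test). The irradiated values rest on 528, 184 and 84 counts. The call was lost without irradiated library 1 (log2 fold change 3.19, adjusted p = 0.641), when only the compared groups were fitted (adjusted p = 0.386), with the replicate number as a block (0.132) and against either stage alone (0.217 for small, 0.0632 for large), whereas without library 2 it was kept (4.05, adjusted p = 0.0273). In the fit with microglia, Sall1 read 24.4, 17.9 and 38.6 CPM in irradiated BMDM libraries 1, 2 and 3. Irradiated microglia 1, 2 and 3 read 227, 192 and 213 CPM for Sall1 and 91.0, 38.2 and 32.6 CPM for Phlda3. The part of microglial RNA in the Phlda3 difference was not tested.

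Ccng1, a cyclin that p53 induces and that feeds back on Mdm2, read 413, 225 and 219 CPM in the irradiated libraries. Unirradiated libraries ran from 70.7 to 154 CPM with a median of 129.7. The groups did not overlap, and library 1 was again the highest. The means were 286 ± 111 (SD, n = 3) and 125 ± 24.3 CPM (SD, n = 10), a log2 fold change of 1.20 ± 0.21 (SE, 95% interval 0.77 to 1.63) with an adjusted p of 0.0596 in edgeR's quasi-likelihood test. It passed the threshold with DESeq2 (1.15, adjusted p = 0.000977) and with limma voom and quality weights (1.37, adjusted p = 0.00229). Voom weights each library, and in the BMDM fit irradiated libraries 1, 2 and 3 had weights of 3.30, 0.181 and 1.79. The voom values of the irradiated BMDM group thus rest mostly on libraries 1 and 3. Without irradiated library 1 the Ccng1 fold change was 0.84 (adjusted p = 0.641).

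Cdkn1a and Mdm2, the best known p53 targets, did not pass. Cdkn1a read 850.4, 1011 and 688 CPM against 325 to 916 CPM (median 638) without irradiation. Only library 2 lay above every unirradiated library, and the log2 fold change was 0.40 ± 0.21 (95% interval -0.05 to 0.84, adjusted p = 0.559 in edgeR's quasi-likelihood test), or 0.25 without library 2. Mdm2 read 222, 193 and 150.1 CPM against 80.7 to 288 CPM (median 121). Large-stage library 1 (288 CPM) and small-stage library 3 (224 CPM) lay above all irradiated ones, and the log2 fold change of 0.40 ± 0.30 had an interval from -0.22 to 1.02 (adjusted p = 0.676).

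**Figure D1:**
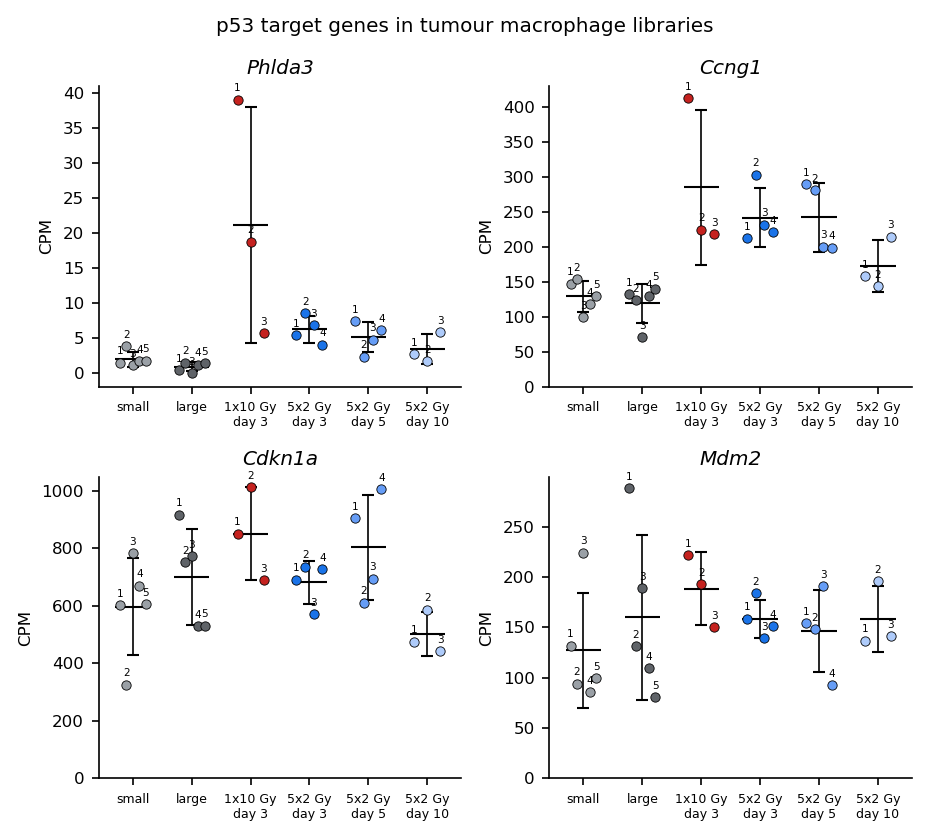
CPM (linear axis from 0) of Phlda3, Ccng1, Cdkn1a and Mdm2 in each library of the 6 BMDM groups; points are libraries marked with their replicate number, bars are means and whiskers are SD. The 3 irradiated libraries stand above all unirradiated ones for Phlda3 (5.66 to 39.1 CPM) and Ccng1 (219 to 413 CPM) and overlap with them for Cdkn1a and Mdm2.

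The p53 list holds 25 target genes, of which 24 passed the filter on low counts and Eda2r did not. Of the 24, 1 passed the threshold, 6 were higher at an unadjusted p under 0.05 and none was lower, and 14 had a log2 fold change above 0, with a median of 0.32. Polk, a translesion DNA polymerase, read 27.9, 27.4 and 27.9 CPM in the irradiated libraries against 8.24 to 26.8 CPM, so it did not overlap, with a log2 fold change of 0.73 ± 0.22. Sesn2, a stress inhibitor of mTORC1, read 98.4, 87.5 and 107 CPM against 45.2 to 99.1 CPM, and the pro-apoptotic Ei24 read 94.3, 115 and 67.4 CPM against 30.1 to 68.3 CPM. The log2 fold changes were 0.69 ± 0.23 for Sesn2 and 0.79 ± 0.24 for Ei24, each with an adjusted p of 0.458. The mitochondrial pore former Bax read 92.7, 120 and 64.8 CPM against 56.2 to 80.9 CPM, which overlapped in library 3 (0.48 ± 0.17, adjusted p = 0.494), and the Bax fold change was 0.25 without library 2. By library the median of the list lay at 0.68, -0.03 and 0.16 relative to the unirradiated mean on the log2(CPM + 1) scale. Over all genes the medians of libraries 1, 2 and 3 on that scale were 0.0096, -0.17 and 0.010. Medians by library of the lists below are read beside these values. Without library 1 the fitted median of the p53 list was -0.11. Library 1 was the highest of the 3 for this list.

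Most proliferation genes had values below 0 without any member passing. Of 23 mitosis genes, none was higher or lower at an unadjusted p under 0.05, and 22 had a log2 fold change below 0, with a median of -0.96. Mki67, the marker of dividing cells, read 7.55, 10.7 and 27.6 CPM against 5.86 to 60.0 CPM (median 24.8), a log2 fold change of -0.90 ± 0.54 (adjusted p = 0.598). The median of the list was -0.99 and -1.02 in irradiated libraries 1 and 2 and 0.09 in library 3, so library 3 did not share it, and without library 3 the fitted median was -1.78. Of 28 DNA replication genes, 2 were lower at an unadjusted p under 0.05, and the median was -0.41. Thymidine kinase Tk1 read 6.96, 17.9 and 14 CPM, below all unirradiated libraries (18.4 to 38.1 CPM, median 25.2), a log2 fold change of -1.03 ± 0.44 with an adjusted p of 0.524. Among 26 genes of break and crosslink repair 1 was higher and 1 lower at an unadjusted p under 0.05. Their median was -0.22 (-0.0064 without library 2). The checkpoint kinase Chek2 read 26.3, 38.4 and 33.4 CPM against 1.05 to 27.9 CPM (1.03 ± 0.43). Exo1 read 0.740, 0 and 1.28 CPM against 0.662 to 11.4 CPM (-2.61). Among 14 tested Bcl-2 family genes 1 was higher and 1 lower at an unadjusted p under 0.05, with a median of -0.06. The survival factor Bcl2l1 read 139, 144 and 131 CPM against 40.4 to 135 CPM (0.65 ± 0.29). Bcl2a1d, of the same family, read 27.5, 55.3 and 26.7 CPM against 29.5 to 216 CPM (-1.28). Replication-dependent histones, which are counted when RNA lacking poly(A) tails is retained, had 23 of 24 values below 0 and a median of -0.78.

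Interferon-stimulated genes were mostly a little above their unirradiated level. Of 29, none passed the threshold, 4 were higher and 1 lower at an unadjusted p under 0.05, and 27 had a log2 fold change above 0, with a median of 0.26. The RNA sensor Ddx58 (RIG-I) read 184, 162 and 129 CPM against 62.9 to 155 CPM (median 92.5), so library 3 lay within the unirradiated range, and the log2 fold change was 0.66 ± 0.21 (adjusted p = 0.458). Oas3, which makes the activator of RNase L, read 70.1, 65.5 and 54.6 CPM against 13.8 to 71.8 CPM (0.71 ± 0.30). Ifit3 had 0.02 and Mx2, an antiviral GTPase, -0.46. The median of the list was 0.07 against the small stage alone and 0.47 against the large stage alone, and it was 0.56, 0.40 and -0.12 in irradiated libraries 1, 2 and 3 on the log2(CPM + 1) scale. The 14 guanylate-binding and immunity-related GTPases, which interferon gamma induces, had 13 values above 0 and a median of 0.50 (0.33 without library 1), with Gbp6 at 0.90 and Igtp at 0.47, and Igtp overlaps Irgm2.

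NF-kB and cytokine genes lay mostly below their unirradiated level. Of 24, none passed, 3 were lower at an unadjusted p under 0.05 and 19 had a log2 fold change below 0, with a median of -0.45. By library the median was -0.38, -0.40 and 0.09 on the log2(CPM + 1) scale, so library 3 did not share it, and without small-stage library 3 the fitted median was -0.19. The NF-kB subunit Nfkb1 read 105, 122 and 121 CPM against 116 to 252 CPM (median 171), and 9 of 10 unirradiated libraries lay above all irradiated ones (-0.65 ± 0.21, adjusted p = 0.458). The NF-kB inhibitor Nfkbia, itself an NF-kB target, read 560.3, 897 and 733 CPM against 776 to 2643 CPM (median 1136), with -0.97 ± 0.32 (adjusted p = 0.458). The subunit Rel read 187, 198 and 291 CPM against 149 to 642 CPM (-0.97 ± 0.38). Of 21 chemokines 1 was lower at an unadjusted p under 0.05, the neutrophil attractant Cxcl1 at 18.4, 43.1 and 47.2 CPM against 7.79 to 476 CPM (-1.86 ± 0.82). The chemokine list had a median of 0.12, which was -0.36 without library 2. Large-stage library 5 was the lowest of all for Cxcl1 and Rel. The 19 immediate early genes, which tissue digestion can induce, had a median of -0.22. The part of cell handling in the NF-kB values was not tested.

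The scavenger receptor Msr1, a member of the alternative activation list, read 768, 684 and 450.2 CPM in the irradiated libraries against 82.1 to 393 CPM (median 261) in the unirradiated ones, with no overlap. The means were 634 ± 165 (SD, n = 3) and 247 ± 94.6 CPM (SD, n = 10), and the log2 fold change was 1.41 ± 0.31 (95% interval 0.77 to 2.04, adjusted p = 0.246 in edgeR's quasi-likelihood test). It passed the threshold with DESeq2 (adjusted p = 0.0231) and with limma voom (adjusted p = 0.00935). Over the same unirradiated libraries, Msr1 had log2 fold changes of 1.01, 1.46 and 1.29 at 5x2 Gy day 3, day 5 and day 10. The direct difference between the single dose and 5x2 Gy at day 3 was 0.40 ± 0.38. Of 13 tested genes of TAM receptors and efferocytosis, the clearance of dead cells, 4 were higher and none lower at an unadjusted p under 0.05, with a median of 0.32. The integrin subunit Itgav, which binds bridging molecules on dead cells, read 170.2, 109 and 201 CPM against 36.4 to 134 CPM (0.94 ± 0.28, adjusted p = 0.458). Its partner Itgb5 read 1078, 601 and 1294 CPM against 201 to 962 CPM (0.92 ± 0.32). The exchange factor Dock1, which moves the membrane around a dead cell, read 49.5, 50.5 and 48.0 CPM against 23.5 to 43.7 CPM, without overlap (0.65 ± 0.21). Protein S (Pros1), a ligand of the TAM receptors, read 505, 378 and 483 CPM against 149 to 451 CPM (0.81 ± 0.28). Library 2 was the lowest of the 3 irradiated libraries for Itgav, Itgb5 and Pros1, and the list's median was 0.53 without it and 0.11 without library 3. None of these passed the threshold in edgeR's quasi-likelihood test.

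**Figure D2:**
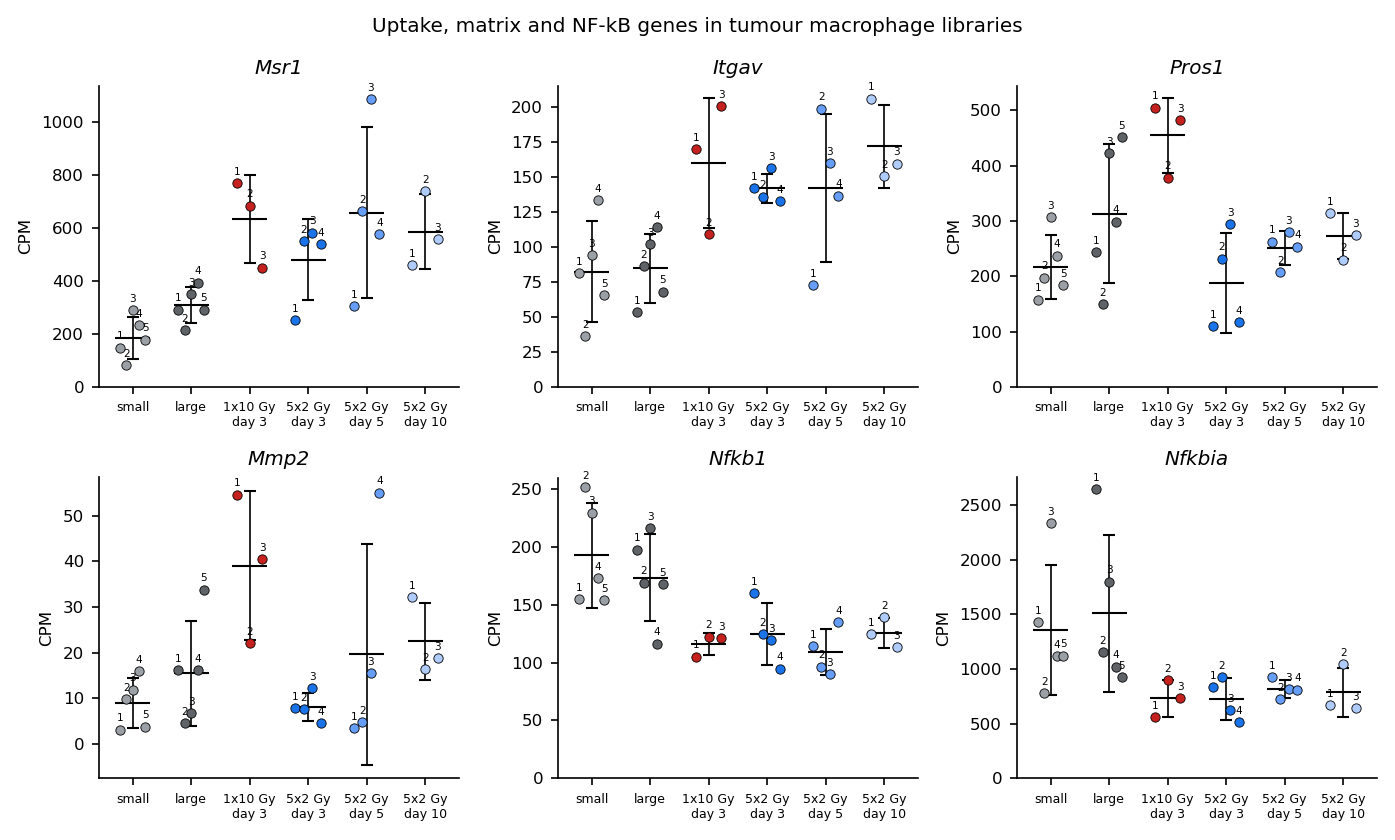
CPM (linear axis from 0) of Msr1, Itgav, Pros1, Mmp2, Nfkb1 and Nfkbia in each library of the 6 BMDM groups, with means and SD. The irradiated libraries stand above all unirradiated ones for Msr1 (450.2 to 768 against at most 393 CPM) and at the upper end of their range for Itgav and Pros1, and Nfkb1 and Nfkbia at the lower end.

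Complement, matrix and lysosome genes had medians above 0 against the mean of both stages, and none passed the threshold. Of 14 complement genes 2 were higher at an unadjusted p under 0.05, and 12 had values above 0, with a median of 0.33, which was 0.14 without library 3 and 0.10 against the large stage alone. The anaphylatoxin receptor C5ar1 read 492, 389 and 462 CPM against 104 to 418 CPM (0.90 ± 0.33), and the complement receptor subunit Itgam read 331, 215 and 387 CPM against 107 to 337 CPM (0.70 ± 0.25). Of 21 angiogenesis and matrix genes 3 were higher and none lower at an unadjusted p under 0.05, and 16 had values above 0, with a median of 0.61 that was 0.32 without library 2. The gelatinase Mmp2 read 54.6, 22.2 and 40.5 CPM against 3.21 to 33.8 CPM (median 10.8), and 9 of the 10 unirradiated libraries lay below all irradiated ones (1.73 ± 0.59, adjusted p = 0.464). The membrane protease Mmp14, which activates Mmp2, read 353, 239.8 and 290.2 CPM against 38.3 to 296 CPM (0.74 ± 0.34). Of 20 lysosomal genes the median was 0.16, or -0.019 against the large stage alone. The cathepsin Ctsc read 3801, 3785 and 3392 CPM against 1603 to 3256 CPM, without overlap (0.54 ± 0.18). Ctsc overlaps a gene model on the other strand, and which of them gave the reads is unknown. Of 20 hypoxia and glycolysis genes the median was 0.29 (0.19 without library 2), with the collagen hydroxylase P4ha1 at 0.50 ± 0.18.

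Antigen presentation and activation genes gave medians between -0.15 and 0.28. The 10 MHC class II genes had a median of -0.15, which was -0.58 without library 2, and the class II chain H2-Aa read 79.3, 237 and 95.9 CPM against 46.6 to 313 CPM (-0.08 ± 0.45). The 15 MHC class I presentation genes had a median of 0.06. Chaperones that load class I had the smallest p among them. Pdia3 read 1314, 1211 and 1091 CPM against 699 to 1082 CPM without overlap (0.45 ± 0.17), and calreticulin (Calr) read 1271, 1268 and 1087 CPM against 599 to 1110.4 CPM (0.53 ± 0.20). The 15 checkpoint and costimulation genes had a median of -0.02, with the T cell costimulator Tnfsf9 at -1.25 and the CD47 receptor Sirpa at 0.60. The 17 genes of alternative activation had a median of 0.28, and Msr1 was the member with the smallest p. Arginase Arg1 read 15.7, 422 and 18.5 CPM against 1.40 to 110.4 CPM, so the log2 fold change of 1.98 ± 1.28 came from library 2 and was -1.18 without it. The 22 genes of disease-associated and lipid-handling macrophages had a median of 0.07, with the lipid carrier Apoe at 9143, 10177 and 8806 CPM against 5436 to 14510.0 CPM (-0.16 ± 0.19) and the cholesterol exporter Abca1 at 0.57 ± 0.26. The 18 NADPH oxidase and antioxidant genes had a median of 0.06, and the 16 TGF-beta signalling genes, 2 higher and 3 lower at an unadjusted p under 0.05, had -0.12, which was 0.24 without library 2.

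**Figure D3:**
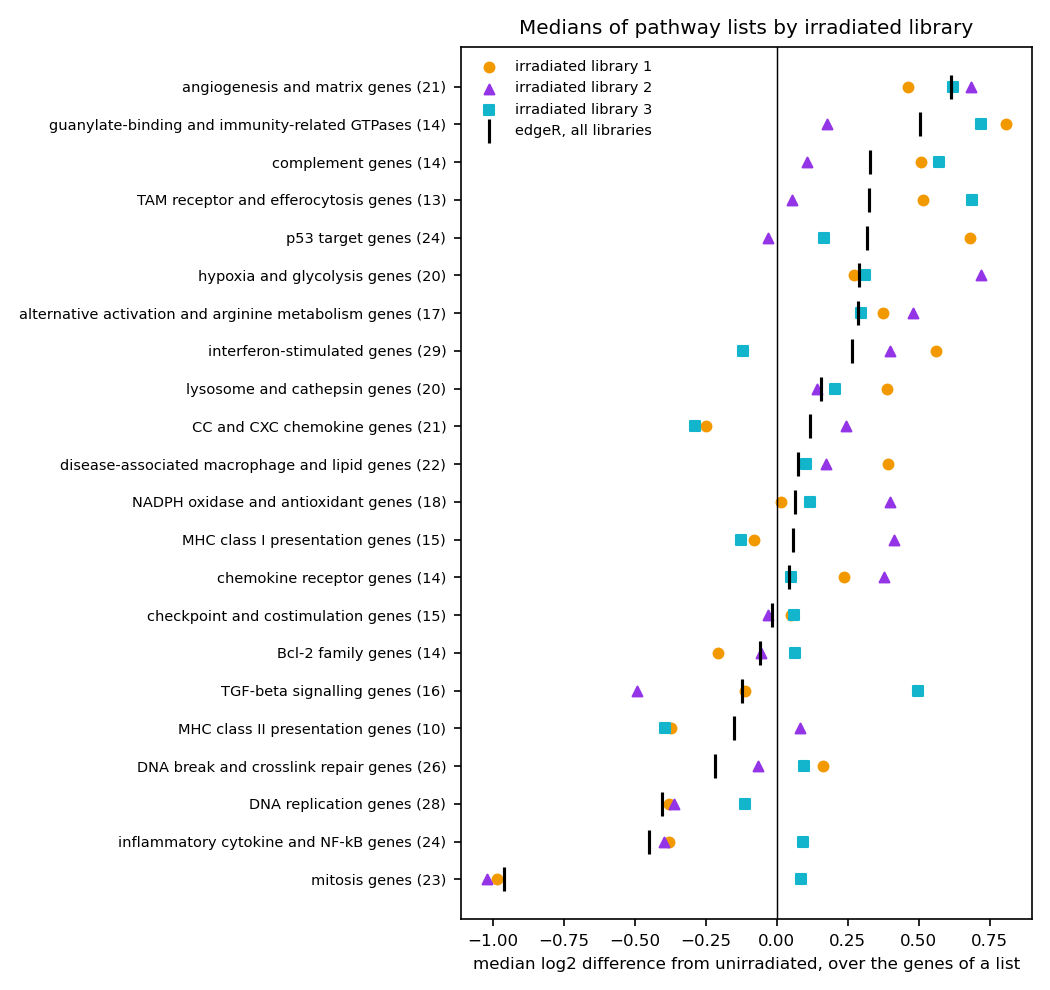
Median difference from the unirradiated mean, log2(CPM + 1), over each of 22 pathway lists for irradiated libraries 1, 2 and 3 (points), with the median of edgeR's fitted log2 fold changes as a black tick. The mitosis list is near -1 in libraries 1 and 2 (-0.99 and -1.02) and at 0.09 in library 3, and the p53 list is highest in library 1 (0.68).

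No identity gene of the sorted cells passed the threshold. The 15 genes of recruited macrophages had a median of 0.02, with Itga4 at -0.07 and the monocyte chemokine receptor Ccr2 at 1592, 1449 and 1059 CPM against 229 to 1610.1 CPM (0.57 ± 0.37, adjusted p = 0.621). Ly6c2, which marks newly arrived monocytes, read 18.7, 29.4 and 9.84 CPM against 2.20 to 37.8 CPM (median 4.70), and 7 of 10 unirradiated libraries lay below all irradiated ones (1.22 ± 0.59, 95% interval 0.01 to 2.43, adjusted p = 0.532). Without library 2 the Ly6c2 fold change was 0.78, and against the small stage alone it was 0.40. Ccr1, a receptor for inflammatory chemokines, read 728, 620.4 and 602 CPM against 189 to 729 CPM (0.57 ± 0.24). The 10 genes of border macrophages had a median of 0.30 (0.13 without library 1), with Ms4a7 at 0.75 and Cd163 at 0.11. The 19 microglia identity genes had a median of 0.25 (0.063 without library 3) with 15 values above 0, and P2ry12 had 0.26 ± 0.41.

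Genes of conventional dendritic cells, which share surface proteins with macrophages, lay below their unirradiated level. Of 13 tested, none passed in edgeR's quasi-likelihood test, 4 were lower at an unadjusted p under 0.05 and 12 had a log2 fold change below 0, with a median of -0.57. Itgae, the CD103 integrin of cross-presenting dendritic cells, read 52.2, 18.0 and 54.0 CPM in the irradiated libraries. It read 110.0, 486, 243, 185 and 228 CPM in the small-stage and 138, 88.4, 57.5, 71.0 and 80.2 CPM in the large-stage libraries. All irradiated libraries lay below all unirradiated ones, but only just below the large stage. The log2 fold change was -1.83 ± 0.49 (95% interval -2.84 to -0.82, adjusted p = 0.411), and it was -2.59 against the small stage and -1.07 against the large stage. Itgae passed with DESeq2 (-1.88, adjusted p = 0.0154). Clec9a, a receptor for exposed actin on dead cells, read 5.77, 0.102 and 6.34 CPM against 13.7 to 85.0 CPM (-2.86 ± 0.89, adjusted p = 0.458 in edgeR and 0.0257 with DESeq2). The chemokine receptor Xcr1 read 33.1, 2.76 and 19.2 CPM against 14.8 to 251 CPM (-1.89 ± 0.80). Snx22 read 20.3, 20.8 and 17.2 CPM against 23.6 to 127 CPM (-1.37 ± 0.53), and it overlaps the abundant Ppib on the other strand. Flt3, the growth factor receptor on which these cells depend, read 117, 132 and 177 CPM against 53.7 to 508 CPM (-0.76 ± 0.46). The list's median was -0.97 against the small stage and -0.20 against the large stage. Summed over the 13 genes the level was 1099 to 1230 CPM in irradiated and 677 to 3578 CPM in unirradiated libraries, which overlap. Whether dendritic cells were fewer in the sort or carried less of these transcripts was not tested.

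**Figure D4:**
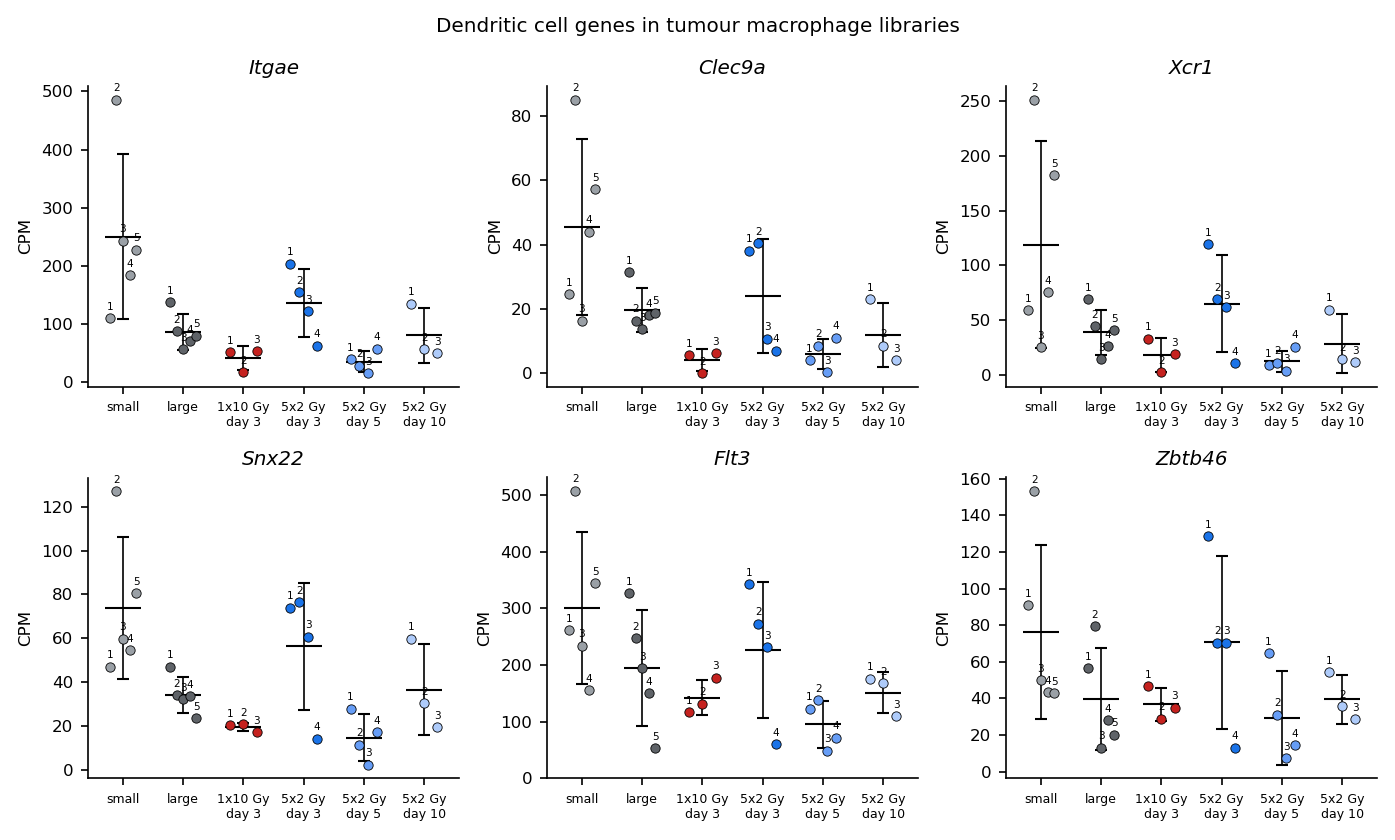
CPM (linear axis from 0) of the dendritic cell genes Itgae, Clec9a, Xcr1, Snx22, Flt3 and Zbtb46 in each library of the 6 BMDM groups, with means and SD. The irradiated libraries lie below all 10 unirradiated ones for Itgae (18.0 to 54.0 against at least 57.5 CPM), Clec9a and Snx22, and the highest Itgae value, 486 CPM, is in a small-stage library.

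Other cell types were checked by their summed levels. B cell genes summed to 13.5 to 24.9 CPM in irradiated and 7.33 to 178 CPM in unirradiated libraries, and NK and T cell genes to 146 to 250 and 22.2 to 603 CPM. Most of the irradiated NK and T cell sum was the receptor Klrk1 at 161, 225 and 144 CPM. Of the 10 tested NK and T cell genes 9 were below 0, and 3 were lower at an unadjusted p under 0.05, with a median of -4.17 that rests on irradiated levels near 0. Granulocyte genes gave 336 to 576 against 217 to 573 CPM and epithelial tumour genes 43.3 to 104 against 37.2 to 110 CPM. Neuron genes gave 0.715 to 3.24 against 2.09 to 33.5 CPM. Erythroid genes were at 11.2, 57.3 and 0.742 CPM in irradiated libraries 1, 2 and 3 and at 0 to 17.1 CPM in unirradiated ones. The NK cell granule gene Nkg7 read 0.296, 0 and 0.0674 CPM in the irradiated libraries and 0 to 58.7 CPM in the unirradiated ones. Of 81 ribosomal protein genes 69 were below 0, with a median of -0.49, which was -0.19 once the 4 BMDM libraries with over 0.9% of counts in these genes were left out. The part of any of these in the results above was not tested.

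Fractionated radiotherapy to the same nominal total dose was compared with the single dose directly, without the unirradiated libraries. The library titles do not say whether its day counts from the first or the last fraction. The dose given by that day and the time since exposure may therefore differ from those of the single dose. No gene passed among 15874 (0%, edgeR's quasi-likelihood test, smallest adjusted p = 1), and 609 (3.84%) had an unadjusted p under 0.05, 347 of them (2.19%) higher and 262 (1.65%) lower after the single dose. DESeq2 called 1 gene and limma voom with quality weights called 143. Phlda3 read 5.40, 8.59, 6.89 and 4.06 CPM in the 5x2 Gy day 3 libraries, 2 of them below the lowest single dose library, and the difference was 1.76 ± 0.74 on the log2 scale (95% interval 0.24 to 3.29, adjusted p = 1). It was 1.96 without the 5x2 Gy library that held Y-linked counts and 0.96 without irradiated library 1. Ccng1 read 212, 304, 232 and 221 CPM after 5x2 Gy, a difference of 0.24 ± 0.26. Values at the later days of the fractionated schedule are set beside these, since all 4 irradiated groups share the 10 unirradiated libraries. For Phlda3 the log2 fold changes over unirradiated libraries were 3.96 at 1x10 Gy day 3 and 2.20, 1.93 and 1.34 at 5x2 Gy day 3, day 5 and day 10. For Ccng1 they were 1.20, then 0.96, 0.96 and 0.47.

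Complement and chemokine genes were mostly higher after the single dose than after 5x2 Gy. C1qa, a chain of the C1q opsonin, read 1697, 1456 and 1472 CPM after 1x10 Gy and 539, 733, 940.2 and 687 CPM after 5x2 Gy, without overlap (1.09 ± 0.33, adjusted p = 1 in edgeR's quasi-likelihood test and 0.0257 with limma voom). Against unirradiated libraries C1qa had 0.09 ± 0.29. Of 14 complement genes 5 were higher at an unadjusted p under 0.05 and 13 had values above 0, with a median of 0.76. In the comparison with 5x2 Gy, 44.7% of all genes had values above 0. Pros1 read 110.0, 232, 295 and 117 CPM after 5x2 Gy against the 378 to 505 CPM of the single dose (1.27 ± 0.34, adjusted p = 1 and 0.0178 with limma voom). The monocyte attractant Ccl8 read 350.4, 111 and 212 CPM after 1x10 Gy and 11.4, 80.7, 74.7 and 43.3 CPM after 5x2 Gy (2.10 ± 0.58, adjusted p = 1 and 0.0168 with limma voom). Microglia identity genes moved with these values: 6 of 19 were higher at an unadjusted p under 0.05, 18 had values above 0 and the median was 0.64. Sall1 read 1.61, 4.86, 12.5 and 0.744 CPM after 5x2 Gy, below all 3 single dose libraries, and the summed level of the microglia list was 8649 to 10979 CPM after 5x2 Gy against 10571 to 15465 CPM. The part of microglial RNA in the complement and chemokine values was not tested. All 10 tested NK and T cell genes had values below 0, 6 of them lower at an unadjusted p under 0.05, with a median of -5.43 that rests on single dose levels near 0. In 5x2 Gy library 1, Nkg7, Ncr1 and perforin (Prf1), genes of killer lymphocytes, read 48.9, 23.9 and 23.3 CPM. The 7 tested B cell genes were also all below 0, with a median of -0.74, and the part of these cells in the values was not tested. In the other direction, 4 of 13 dendritic cell genes were lower after the single dose at an unadjusted p under 0.05, with a median of -0.67. Itgae read 204, 155, 123 and 63.3 CPM after 5x2 Gy, above every single dose library (-1.72 ± 0.53, adjusted p = 1).

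Microglia from brains given the same dose provided the second comparison. In them 28 of 18357 genes (0.153%) rose or fell, 16 (0.0872%) higher and 12 (0.0654%) lower, against 1 gene in BMDM, and these are separate tests with separate controls. The difference between the 2 changes was tested for every gene and passed for none (0%, smallest adjusted p = 0.999969), with 423 genes (2.3%) at an unadjusted p under 0.05. DESeq2 called 9 genes for this difference and limma voom 1. Phlda3 read 91.0, 38.2 and 32.6 CPM in irradiated microglia and 0.273 to 3.28 CPM in unirradiated microglia, where it rose by 5.40 ± 0.58 (adjusted p = 1.09e-05). The change in BMDM minus that in microglia was -1.42 ± 0.91 (95% interval -3.29 to 0.45), which includes 0.

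Most p53 targets had a lower log2 fold change in BMDM than in microglia. Cdkn1a read 1560, 1291 and 1374 CPM in irradiated microglia against 265 to 576 CPM (median 434), a rise of 1.72 ± 0.22 (adjusted p = 0.000312), and 0.40 in BMDM. The difference of the changes was -1.30 ± 0.35 (95% interval -2.02 to -0.59, unadjusted p = 0.000953, adjusted p = 0.999969 in edgeR and 0.0257 with limma voom). For Ccng1, which rose by 2.16 in microglia (adjusted p = 1.45e-06), the difference was -0.95 ± 0.32 (-1.60 to -0.29). For Mdm2, which rose by 1.44 in microglia (adjusted p = 0.0124), it was -1.01 ± 0.40 (-1.83 to -0.20). In all, 7 of the 24 p53 genes rose in microglia with a list median of 0.96, namely Phlda3, Ccng1, Cdkn1a, Mdm2, Bax, Trp53inp1 and Aen. Over all genes tested, the log2 fold change was higher in BMDM than in microglia for 49.4%. The log2 fold change was lower in BMDM for 20 of the 24 p53 genes, with a median difference of -0.84. Of these 24, 8 genes were lower at an unadjusted p under 0.05, where 157 of all 18357 genes (0.855%) were. These 8 were Cdkn1a, Mdm2, Ccng1, Bax, Bbc3, Pmaip1, Trp53inp1 and Aen. None of the differences passed after adjustment in edgeR's quasi-likelihood test.

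**Figure D5:**
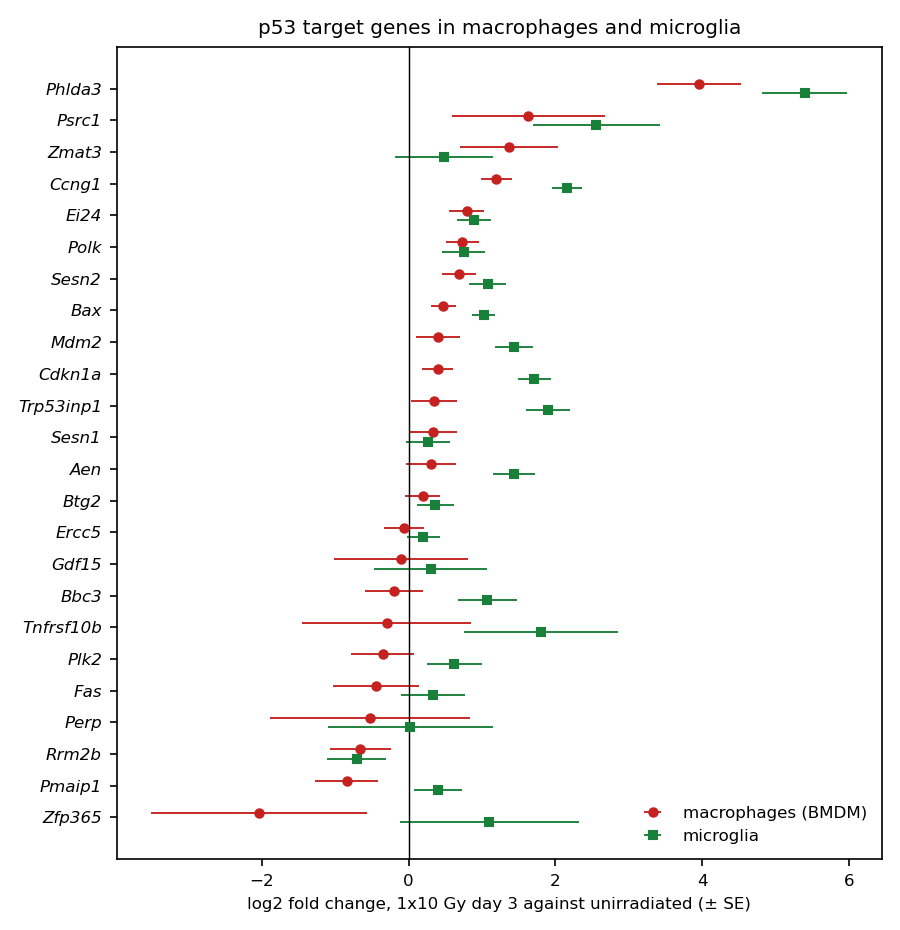
Log2 fold change with SE after 1x10 Gy at day 3 for the 24 tested p53 target genes in BMDM and in microglia, each against its own unirradiated libraries. The microglial value is the higher one for 20 of the 24 genes, including Cdkn1a (1.72 against 0.40 in BMDM).

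Inflammatory monocytes, the precursors of these macrophages, provided the third comparison. No gene passed in the monocytes (0%, 1050 genes or 6.57% at an unadjusted p under 0.05), and none passed for the difference of the changes among 15991 (0%, 215 or 1.34% at an unadjusted p under 0.05). DESeq2 called 10 genes for the difference and limma voom none. Phlda3 read 0.791, 0.532 and 0.168 CPM in irradiated monocytes and 0 to 1.14 CPM in unirradiated ones, so no monocyte library reached the irradiated BMDM libraries. The difference of the changes for Phlda3 was 3.52 ± 1.26 (95% interval 0.92 to 6.12, adjusted p = 0.999944 in edgeR's quasi-likelihood test). Ccng1 read 164, 179 and 176 CPM against 100.4 to 187 CPM, and the difference was 0.95 ± 0.30. Cdkn1a read 655, 767 and 722 CPM against 837 to 1196 CPM, below all unirradiated monocytes, with a log2 fold change of -0.47 (adjusted p = 0.739) and a difference of 0.89 ± 0.30. Over the p53 list the log2 fold change was higher in BMDM than in monocytes for 17 of 24 genes, with a median difference of 0.46. Of all genes tested for this difference, 50.4% had the higher log2 fold change in BMDM.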

How the data were processed

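RNA of sorted cells was sequenced, and the authors deposited raw counts, 1 whole number per gene and library, for 49585 genes. TopHat2 2.0.14, HTSeq, FastQC, DESeq2 1.18.1 and the build GRCm38 are listed without a role, per the submitters' processing notes. The strand of counting and the annotation release were not given in the sources used here, so a gene may hold reads of a gene that overlaps it. Besides the overlaps named above, Nfkb1 overlaps Gm43430 on the same strand (at most 49.5 CPM in BMDM). Itgae overlaps Haspin on the other strand (at most 27.3 CPM), and Clec9a overlaps Gm43914 on the same strand (at most 12.0 CPM). Further named genes also have overlaps.

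All 24 BMDM libraries were fitted together in edgeR 4.0.16 (R 4.3.3): filterByExpr (minimum count 10, minimum total 15), TMM scaling, the quasi-likelihood test with 1 mean per group, and Benjamini-Hochberg adjustment over all genes tested at 0.05. The single dose group was set against the mean of both stages. Differences from microglia (26 libraries) and monocytes (25 libraries) were interaction terms of separate fits. Levels are CPM with TMM factors, so levels from the fits with microglia or monocytes differ slightly from those of the BMDM fit. DESeq2 1.42.0 and limma 3.58.1 voom with quality weights were alternatives, besides other filters, references, scalings and left-out libraries. The test was also run on simulated counts, with changes set only in well-counted genes and with no outlying library. That run does not cover data with a library as far apart as the irradiated one described above.

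Genes were named by a rule: up to 15 genes each way past the threshold with no overlap, at least 10 CPM in the higher group, up to 8 each way in the other comparisons, up to 6 members of each of 42 lists by smallest adjusted p, and 15 set genes. Bbc3, Pmaip1, Trp53inp1, Aen and Zbtb46 were added after their values were seen. The comparison and the lists were chosen with earlier results of these data known. Replicate numbers were not taken as pairs, since not every same-numbered pair correlated above 0.1 in any comparison (values in the closing section).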

Additional observations from a re-analysis of the deposited data

Results flagged for a closer look

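Within 131 checked groups of 4 or 5 libraries, 9 held a library whose gap to the next exceeded Dixon's 95% critical value, and chance gives about 1 in 20. The single dose group, with 3 libraries, was not checked. Phlda3 stood at 3.84 CPM in small-stage library 2 (next 1.79). Ccng1 stood at 70.7 CPM in large-stage library 3 (next 124), and Polk at 26.8 CPM in the same library (next 17.5). The death receptor Fas stood at 50.8 CPM in large-stage library 1 (next 15.2) and Tk1 at 38.1 CPM in small-stage library 1 (next 25.3). Cd163 stood at 212 CPM in small-stage library 2 (next 56.6) and at 55.4 CPM in large-stage library 3 (next 22.4). The lipase Lpl stood at 310 CPM in large-stage library 5 (next 121). Large-stage library 2 had 31357 genes detected (next 20045). Among the libraries compared with the single dose, 5x2 Gy day 3 library 2 held 5385 counts of 4 Y-linked genes, where no other library used held more than 63.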

How the results depend on the processing

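The count of genes called in BMDM (1) was 64 with DESeq2, 535 with limma voom and quality weights, 6 with no filter on low counts, and 0 for genes of 10 CPM or more, when only the compared groups were fitted, against the small stage alone, against the large stage alone and with the replicate block. It was 4 without libraries under 15000 genes detected, 4 when those over 30000 were also left out and 5 without libraries over 0.9% ribosomal protein counts, settings added after the data were seen. Leaving out 1 library gave 0 (without irradiated library 1) to 3 (without small-stage library 2). Against 5x2 Gy the count of 0 became 1 with DESeq2, 143 with limma voom and 1 with no filter. The difference from microglia had 9 calls with DESeq2 and 1 with limma voom, and that from monocytes 10 with DESeq2 and 1 with a replicate block within condition, which was added after the data were seen. Same-numbered libraries correlated between -0.34 and 0.20 across BMDM groups, between -0.37 and 0.55 for BMDM and microglia, and between -0.049 and 0.71 for BMDM and monocytes. Of the monocyte pairs, small-stage 2 and 3 lay below 0 and the other 10 above 0.1 (0.31, 0.21 and 0.30 after 1x10 Gy), so the numbers were not taken as pairs. In those 10 the best match was also the library of the same number. The errors of the monocyte differences come from the unpaired fit and leave out any shared origin of these libraries. Under the replicate block Phlda3 had an adjusted p of 0.132. Some values near 0 changed sign. Ifit3 was -0.021 with DESeq2 and with RLE scaling, -0.040 at 10 CPM or more, -0.18 against the small stage and -0.0058 without libraries of doubtful quality. H2-Aa was 0.14 against the small stage and 0.084 without the doubtful libraries, and Apoe 0.051 against the small stage. Arg1 was -1.32 without libraries under 15000 genes and -1.12 when those over 30000 were left out too. Cd163 was -0.29 with the replicate block, -0.61 against the small stage and -0.047 without the libraries rich in ribosomal protein counts, and Itga4 0.22 against the large stage. With 1 library left out Ifit3 ran from -0.28 to 0.20, H2-Aa from -0.73 to 0.22, Arg1 from -1.18 to 2.66, Cd163 from -0.10 to 0.64, Itga4 from -0.35 to 0.12 and Ccng1 against 5x2 Gy from -0.15 to 0.39. The causes were not tested. Of the other values of named genes, 872 kept direction and side of the threshold, 33 passed it and 4 lost it under the alternatives that leave out no single library. Of the list medians recomputed under the same alternatives, 133 moved by more than 1 SD of the irradiated libraries' medians and 410 by less. Calls with 3 irradiated libraries rest on few replicates, and a lone thin library limits them further.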

Other observations

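Genes of no list stood next to Phlda3 and Ccng1 in the order of p-values, and they are given as values only, chosen after their values were seen. The histamine receptor Hrh2 had 39.7 ± 5.39 CPM (SD, n = 3) after 1x10 Gy and 13.4 ± 6.69 CPM (SD, n = 10) without radiotherapy, a log2 fold change of 1.59 ± 0.34 (SE). The glycogen-targeting phosphatase subunit Ppp1r3b had 107 ± 28.4 and 42.1 ± 15.6 CPM (1.35 ± 0.30), and the Golgi scaffold Gopc had 63.1 ± 16.5 and 34.2 ± 7.12 CPM (0.89 ± 0.18). Klra17, of a family of closely similar receptors whose reads may be shared between members, had 16.8 ± 1.94 and 2.48 ± 1.61 CPM (2.75 ± 0.57). All 4 had an adjusted p of 0.246 in edgeR's quasi-likelihood test, the same as Msr1, and so none of them passed. The heparan sulfate 6-O-endosulfatase Sulf2 had 176 ± 37.1 and 82.0 ± 27.0 CPM (1.10 ± 0.26, adjusted p = 0.342).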
